A study of Drosophila melanogaster with 4 samples.

Results

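On chromosome arm 2L, 549 of the 4198 peaks called for green fluorescent protein (GFP)-tagged Notch lay in the euchromatic stretch described here. They are the peaks of the deposited list whose midpoint lies at or below 22 Mb on 2L in release 5 of the *Drosophila melanogaster* genome, without those in a window of 150 kb that holds a tandem block of 87 peaks (21405851 to 21543548). A further 22 peaks of the arm lie beyond 22 Mb. The choice was made by position, so widths, scores and gene neighbourhoods are measures that it did not use. The window was left out for its tandem block, so peak density and grouping are not independent of the choice.

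Both groups of libraries came from whole wandering third-instar larvae (L3) of the strain Notch-GFP, genotype PBac{y[+]-attP-3B}VK00033, which carries the Notch genomic coding region as a transgene; the sex of the larvae is labelled unknown. One group is 2 chromatin immunoprecipitation (ChIP) libraries made with ab290, a rabbit polyclonal antibody to GFP, and the other is 2 input DNA libraries. The culture protocol in the labels names y; bw cn sp flies. Larvae grew at 25 °C and were cross-linked in 1.8% formaldehyde for 15 min. A whole larva mixes imaginal discs, nervous system, gut, fat body and muscle, so a peak cannot be assigned to a tissue. The labels do not state that replicates came from separate cultures, and the libraries used here include neither untagged larvae nor a control antibody.

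Notch is a cell-surface receptor that is cut when it meets a ligand on a neighbouring cell. The freed intracellular part moves to the nucleus, joins the DNA-binding protein Su(H) and the co-activator Mastermind, and raises transcription of target genes. In larvae the pathway is known for setting boundaries in imaginal discs, for selecting neural precursors and for the fates of neural and intestinal stem cell daughters.

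The list gives 1 span and 1 score for each peak of the whole series, with no value per library. No peak therefore has a replicate error, no test between ChIP and input libraries could be made, and the read depth is unknown. The score is the authors' own, on a scale that the sources used here do not give, so it serves only to rank and describe peaks within this list. Intervals are exact 95% intervals (order statistics for medians, Clopper-Pearson for shares, Poisson for densities). They reflect counting error alone and assume independent peaks, although neighbouring peaks are not.

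The 2L peaks were narrow, mostly low in score, and close in both measures to peaks of 3L, 3R and X, the only arms compared. Their median width was 482 bp (466 to 513 bp), with quartiles of 325 and 751 bp and a range of 201 to 3423 bp. The median score was 25.9 (23.3 to 29.1), with quartiles of 14.3 and 54.2 and a range of 7.02 to 294.1. A score over 100 was reached by 70 peaks, 12.8% (10.1 to 15.8%). Arms 3L, 3R and X had median widths of 484, 495.5 and 496 bp and median scores of 25.4, 26.4 and 24.4, and each of their intervals overlapped that of 2L. Peaks over 100 made up 14.3% on 3L, 12.8% on 3R and 13.1% on X. Those arms were taken whole, whereas 2L is without the tandem block and the 22 peaks beyond 22 Mb. Of these 22 peaks 11 passed 100, and of the 87 in the block 0 did.

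**Figure D1:**
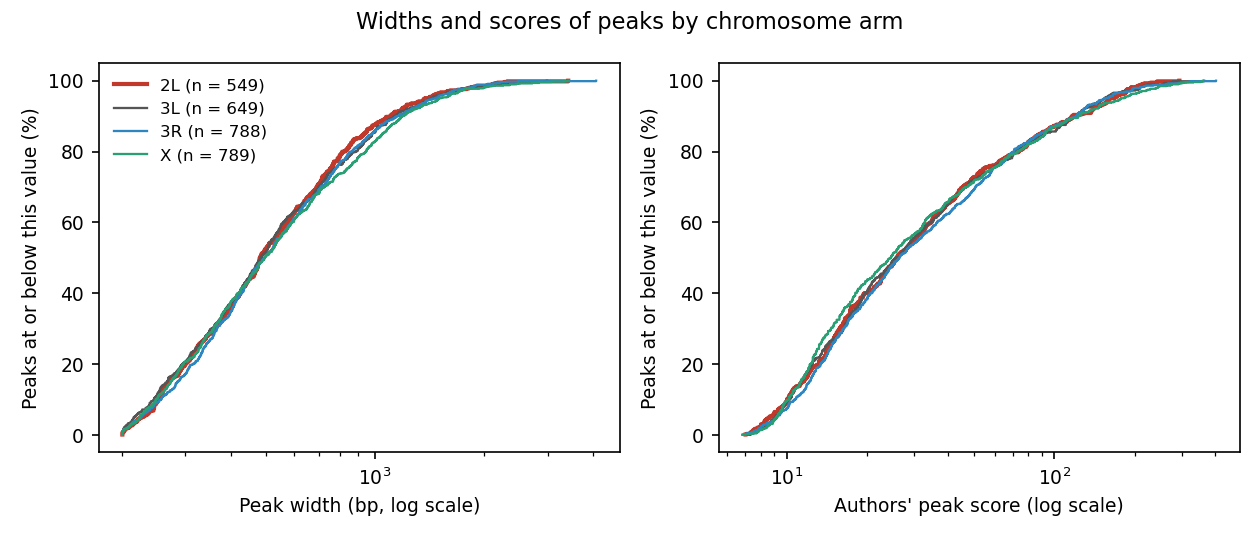
Cumulative share of peaks (%) by width (bp, left) and by the authors' score (right), both on log axes, for 2L (thick red line, 549 peaks) and for 3L, 3R and X, each taken whole. The 4 curves run close together, with median widths from 482 to 496 bp and median scores from 24.4 to 26.4.

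Score and width went together. Among the 138 narrowest 2L peaks (201 to 325 bp) the median score was 11.9 and no peak passed 100. Among the 137 widest (753 to 3423 bp) the median was 80.5 and 54 peaks passed 100. Across the 549 peaks the Spearman rho was 0.784 and the Pearson r 0.669, given as a description because both values come from the same reads.

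The stretch's share of the highest scores was set beside its share of all peaks. Of the 100 highest scores in the whole list, 7 were on it, 7.0% (2.86 to 13.9%), beside its 13.4% share of all peaks outside the block; none was among the 22 peaks beyond 22 Mb. Among the 1000 highest scores it had 123, 12.3% (10.3 to 14.5%). Both intervals include 13.4%, so a shortage was not shown.

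Peaks were unevenly spread along the arm. The stretch carried 25.1 peaks per Mb (23.1 to 27.3). Arm 3L carried 26.5 (24.5 to 28.6), arm 3R 28.3 (26.3 to 30.3) and the X chromosome 35.2 (32.8 to 37.7). Each other arm was counted up to where its last peak ends, with no part left out, unlike 2L. The interval of X lay above that of 2L, while those of 3L and 3R overlapped it; the differences themselves were not tested. Peaks covered 1.52% of the 2L stretch, against 1.63% of 3L, 1.76% of 3R and 2.27% of X. A peak of 2L had its nearest neighbour at a median distance of 6.74 kb, against 6.58, 6.52 and 4.37 kb on those arms.

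In windows of 1 Mb, 2L held 25.1 ± 9.40 peaks per Mb (SD over 22 windows), with a minimum of 3 and a maximum of 42. The last window, without the block, is 0.85 Mb long, and its count was scaled to 1 Mb. The fullest window was the first Mb, next to the telomere. The emptiest ran from 17 to 18 Mb, with 3 peaks, and also had the fewest genes, 99. By sections of 5.5 Mb, the density was 32.9 per Mb from 0 to 5.5 Mb (28.3 to 38.1), 28.2 from 5.5 to 11 Mb (23.9 to 33.0), 17.6 from 11 to 16.5 Mb (14.3 to 21.5) and 21.7 from 16.5 to 22 Mb (17.9 to 26.0). Median scores in these sections were 25.3, 27.96, 25.7 and 24.3, with overlapping intervals, so the emptier sections did not hold visibly stronger or weaker peaks. Windows with more genes held more peaks (Spearman rho 0.537, Pearson r 0.676 over 22 adjoining windows, which share the arm and are not independent).

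At the edges of the chosen stretch the peaks were ordinary. The last peak below the block (21344273 to 21344958) scored 23.1 and the first above it (21559707 to 21559957) scored 16.5. Just inside the block the first peak scored 11.6 and the last scored 15.9. The last peak below 22 Mb (21899258 to 21899722) scored 45.5, and the first beyond it (22018792 to 22019172) scored 15.4. As a group, however, the 22 peaks beyond 22 Mb had a median score of 94.2 (19.7 to 131.1), against 25.9 for the stretch.

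Gene positions came from a RefSeq gene table on release 6, which gives both ends of a gene but no strand, so starts cannot be told from stops. Whether its positions fit the release 5 peaks was checked by shifting the gene table in steps of 100 bp up to 20 kb either way and counting gene ends inside peaks. Over the whole stretch the count was highest, 259, at a shift of 0, against a median of 130 over all shifts. It was highest at 0 from 5.5 to 11 Mb (102 gene ends, median 44), within 200 bp of 0 from 0 to 5.5 Mb (72, median 40) and at -100 bp from 16.5 to 22 Mb (59, median 27). From 11 to 16.5 Mb the highest count, 37, came at a shift of 13700 bp, beside 31 at 0 and a median of 18. It stood little above the 36 at -4700 bp and the 35 at -300 bp. Counting peaks that hold at least 1 gene end instead, the highest count there, 31, came at -300 bp, beside 23 at 0 and a median of 13, which also lies outside 200 bp. The check locates the positions to about 200 bp and not to single bases. By the limit of 200 bp set for it, gene neighbourhoods are given for 452 peaks and 2573 genes in the 3 sections that passed. The 97 peaks from 11 to 16.5 Mb are described by position only. Missing the limit does not show that gene positions there are shifted. At the end of the arm, the window of the tandem block holds 111 histone genes of the table; the block began 11.1 kb before the first of them and ended 1.87 kb after the last.

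**Figure D2:**
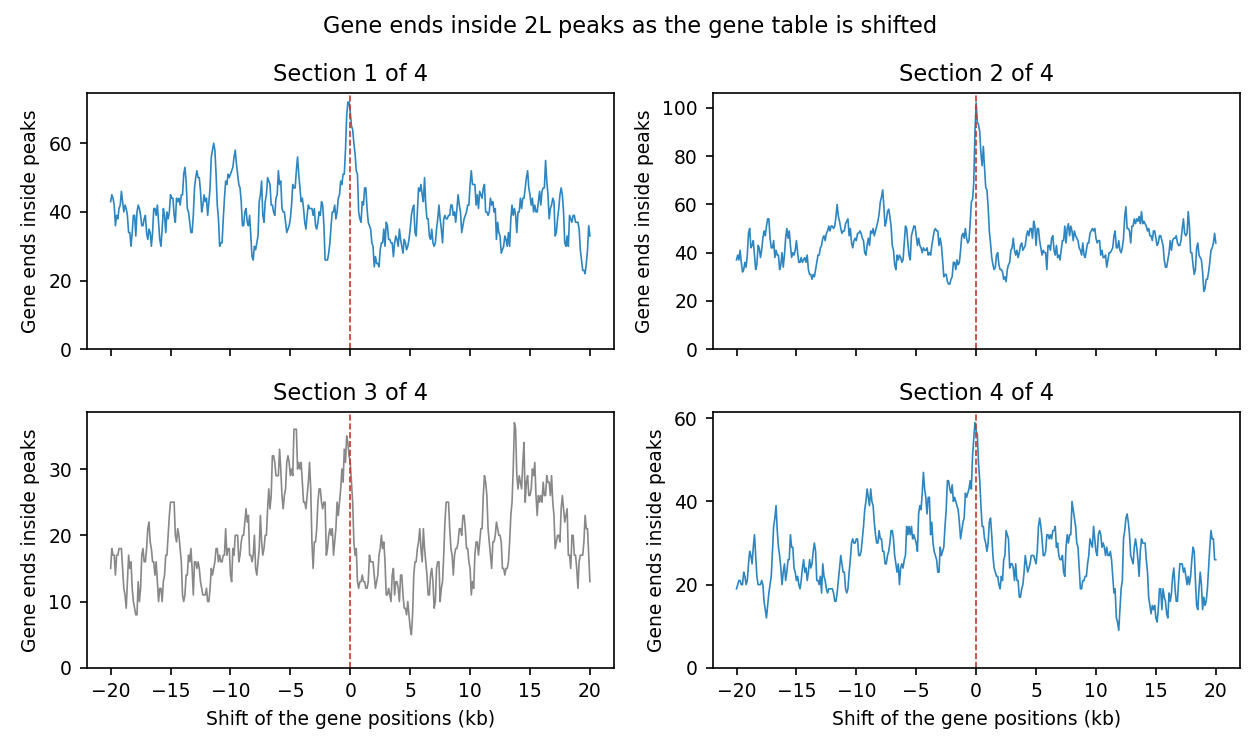
Number of gene ends inside 2L peaks (vertical axis) as the gene table is shifted by up to 20 kb either way (horizontal axis), in 4 sections of 5.5 Mb from the telomere; the dashed line marks a shift of 0. Sections 1, 2 and 4 have their highest counts (72, 102 and 59) within 200 bp of 0. Section 3 (grey) has its highest, 37, at 13.7 kb, with 35 at -300 bp and 31 at 0.

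Peaks lay near gene ends more often than the bases around them did. Of the 452 peaks, 214 had their midpoint within 500 bp of a gene end, 47.3% (42.7 to 52.1%), against 21.1% of the bases of the same sections, a ratio of 2.24. A further 188 peaks (41.6%) lay inside a gene but farther from its ends, where 58.0% of the bases are. The remaining 50 (11.1%) lay between genes, against 20.9% of the bases. Ends of at least 2 genes lay within 500 bp of 85 peaks, and an end of 1 gene lay within that distance of another 129. The matching shares of bases were not computed, so these 2 counts have no background.

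The excess was limited to short distances. Within 250 bp of a gene end there were 28.8% of the peaks (24.6 to 33.2%) and 12.3% of the bases. Between 250 and 500 bp the shares were 18.6% of the peaks and 8.78% of the bases. From 500 to 1000 bp they were level, at 12.2% and 12.3%, and in the 4 classes from 1 to 20 kb the peaks had the lower share. The median distance was 574 bp for peaks (462.5 to 712 bp) and 2148 bp for bases.

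**Figure D3:**
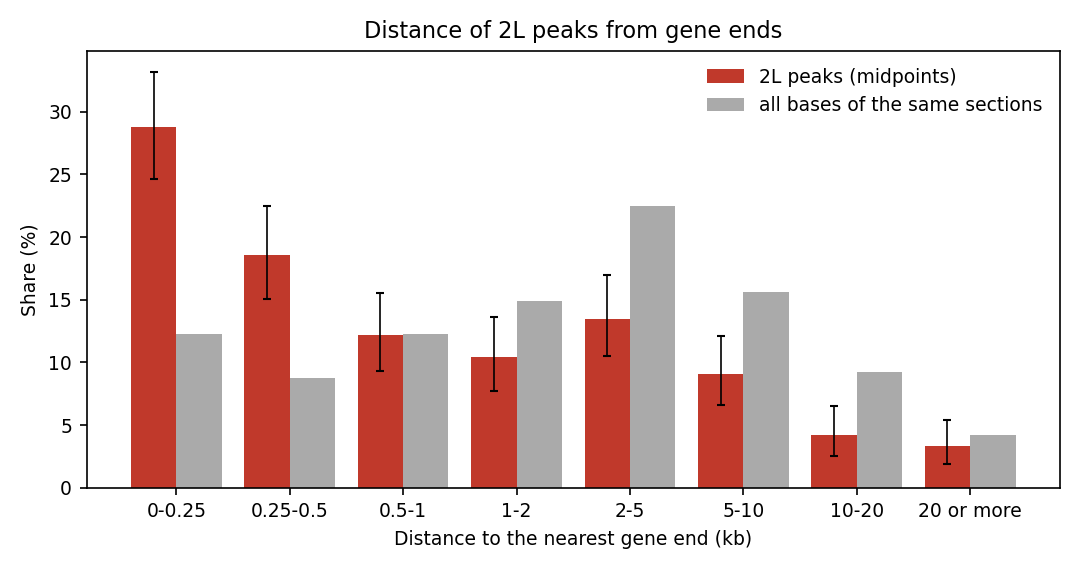
Share (%) of 452 2L peak midpoints (red, left bar of each pair, with exact 95% intervals) and of all bases of the same sections (grey) by distance to the nearest gene end (kb). Peaks exceed bases in both classes up to 0.5 kb (28.8% against 12.3%, and 18.6% against 8.78%) and fall below them in the classes from 1 to 20 kb.

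Peaks between genes were narrower than the rest. Their median score was 19.9 (15.0 to 26.2) and 2 of 50 passed 100. Peaks near a gene end had a median score of 27.8 (23.5 to 32.8), with 34 of 214 over 100, and those inside genes 25.9 (21.8 to 33.1), with 19 of 188. The score intervals overlap. Median widths were 353 bp between genes (317 to 437 bp), 503 bp near an end (468 to 570 bp) and 510.5 bp inside genes (481 to 576 bp), where the first interval lies below the other two. Of the peaks scoring above the median of the whole list, 112 of 223 were near a gene end, and of those at or below it 102 of 229 were.

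Each high peak is placed by its midpoint, and most lay at gene ends. The highest of the stretch, 2L:6323648-6324760, scored 294.1, rank 26 in the whole list, and lay at an end of PDZ-GEF, an exchange factor that activates the small GTPase Rap1. The second, 2L:2885682-2887377 (score 242.8, 1696 bp wide), had its midpoint inside lilli and its span reaching within 500 bp of an end of that gene, which encodes a nuclear protein of the AF4 family of transcription elongation factors. The third scored 242.7 at 2L:1644251-1644977 and lay between genes, 2.3 kb from the nearest end, that of lncRNA:CR45695. The fourth (2L:4811338-4812917, score 229.4) was at an end of lncRNA:CR45297.

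Of all 452 peaks, 85 had ends of at least 2 genes within 500 bp, and a difference of the high peaks from that was not tested. Several of the other high peaks stood where ends of 2 genes meet. One was the peak scoring 218.0 at 2L:6455116-6456534, beside retm and frj. Another was 2L:10339045-10339808 (score 214.5), beside GATAd, a GATA-family zinc finger, and SamDC, an enzyme of polyamine synthesis. The peak at 2L:5985781-5986699 (score 208.3) adjoined eIF4A, the RNA helicase of translation initiation, and ifc, a sphingolipid desaturase. An end of pie alone lay by the peak 2L:10422292-10423009, which scored 211.3.

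The rest of the 15 highest scored from 186.6 to 205.4. Those inside genes were in Bsg (score 205.4), which encodes the membrane glycoprotein Basigin, in Rtnl1 (score 194.5), a reticulon of the endoplasmic reticulum, and in toc (score 193.5). At gene ends were a peak of score 203.5 by dbr and the non-coding genes lncRNA:CR45339 and lncRNA:CR45340, and one of score 193.1 by the microRNA genes mir-275 and mir-305 and lncRNA:CR43857. The 15th, of score 186.6, was by mEFG1, a mitochondrial translation factor, CG13784 and asRNA:CR44989. The peak ranked 14th (2L:13526936-13527607, score 188.2) is in the section without gene positions. By midpoint, 9 of the 14 peaks with gene positions lay at gene ends, 4 inside genes and 1 between genes. Among all 452 peaks 47.3% lay at gene ends, and a difference of the high peaks from that share was not tested.

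Width picked out partly different peaks. The widest, 3423 bp at 2L:11805966-11809388, scored 169.2 and is in the section without gene positions. The next, 2322 bp at 2L:9567595-9569916, lay at ends of brwl and lncRNA:CR44149 and scored 87.8. The third was the peak inside Bsg, 2280 bp wide.

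Peaks with midpoints under 5 kb apart were chained into groups. On this stretch 317 peaks (57.7%) stood alone and 232 (42.3%) fell into 92 groups. Of these groups 67 had 2 peaks, 13 had 3, 6 had 4, 1 had 5 and 5 had 6. Grouped and single peaks had similar scores, with medians of 24.0 (19.5 to 30.3) and 26.9 (23.5 to 31.0). Within a group scores were unequal: the highest peak of each of the 92 groups had a median score of 53.5 and the other 140 peaks had 16.7. Some inequality is built into that comparison, since the highest was picked by its score.

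The 5 groups of 6 peaks showed different make-ups. In Rtnl1 all 6 peaks of the group overlapped the gene, over 12.68 kb, with scores of 129.8, 8.02, 194.5, 65.2, 14.6 and 22.5 along the arm. At Kr-h1, which encodes a zinc finger protein of the juvenile hormone response, the scores were 12.4, 18.3, 9.5, 49.8, 57.4 and 48.1 over 7.4 kb, with 3 middling peaks side by side and no dominant one. The group of 9.0 kb that holds mir-275 and mir-305 also holds ends of chm, a histone acetyltransferase, and of muc, a subunit of pyruvate dehydrogenase. Its scores were 35.3, 8, 44.2, 7.37, 74.5 and 193.1, so the highest peak stood at the microRNA end. The group from 2196550 to 2203658 held an end of COX7AL2 and scored between 8.39 and 80.5. The last one, from 12003382 to 12012841, lacked gene positions and had low scores throughout, from 10.0 to 17.7.

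**Figure D4:**
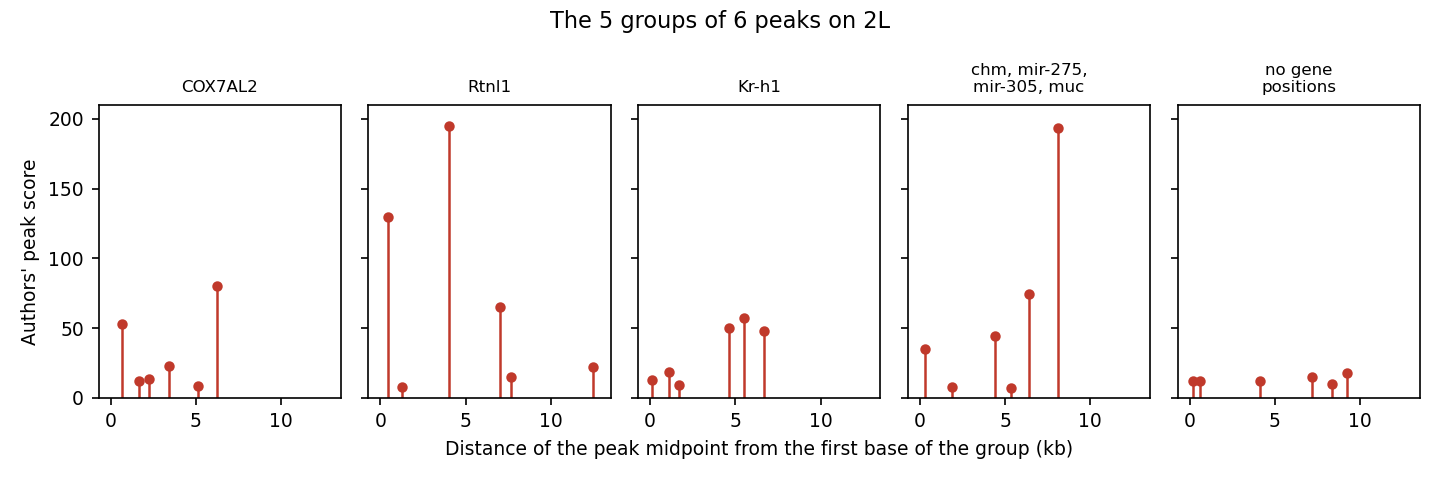
Authors' score (vertical axis) of each peak against the distance of its midpoint from the first base of the group (kb, horizontal axis), for the 5 groups of 6 peaks, titled by the genes with an end inside the group. The Rtnl1 group and the group at mir-275 and mir-305 have highest peaks of 194.5 and 193.1, while in the group without gene positions no peak passes 17.7.

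Of the 2573 genes in the 3 sections, 388 had a peak at an end, counted here by the span of the peak coming within 500 bp, 15.1% of those tested, and 346 overlapped a peak, 13.4% of those tested. Both shares went with gene length. Among genes under 1 kb, 8.6% had a peak at an end and 4.48% overlapped one. Among genes of 5 to 20 kb the shares were 31.9% and 35.3%, and among genes of 20 kb and over they were 25.4% and 39.1%. The lists of signalling and regulator genes have median lengths of 7.35 to 40.1 kb, against 1.63 kb over all genes, so each count is set beside the share that all genes of the stretch had in the same length classes. The lists are small, share some genes and leave out members from 11 to 16.5 Mb, Su(H) among them; no list was tested, and no list is shown to differ from other genes.

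Of 9 genes that act in or on Notch signalling, 4 had a peak at an end (44.4%, against 25.7% of genes of the same lengths) and 5 overlapped a peak (55.6%, against 31.1%). numb, whose product blocks Notch in one daughter of an asymmetric division, had a peak of score 25.2 at an end and a second peak of 13.3. The polarity gene l(2)gl held 4 peaks in 11.54 kb, with scores of 44.0, 18.2, 82.1 and 10.9. In ed, the gene of the adhesion molecule Echinoid, 3 peaks scored 32.3, 9 and 15.4 over 84.37 kb. Rab5, for a GTPase of early endosomes, had a peak of 12.6 in the gene and one of 19.4 at an end. Traf4, a signalling adaptor, had 1 internal peak of 69.9. aph-1 (a subunit of γ-secretase), AP-2alpha (an endocytic adaptor subunit), Tsp26A (a tetraspanin) and wry had no peak. With the gene end required inside the peak, 1 of the 9 had a peak at an end, beside 216 of all 2573 genes. That stricter background was not matched for length. Scores at these genes ran from 9 to 82.1, and most lay below the median of the stretch, 25.9.

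Receptor kinase signalling had peaks at 5 of 8 genes (62.5% at an end, against 26.8%). With the gene end required inside the peak, the count was 1. The EGF receptor ligand gene spi held peaks of 141.4 and 182.9 in 9.42 kb. S, which encodes Star, needed to export that ligand, held peaks of 90.9 and 138.2. Those 4 peaks were all far above the median score. The ETS repressor gene aop held 4 peaks, of 11.5, 15, 51.7 and 32.2, and the receptor gene Pvr had 1 of 17.1. The fifth was ed, given above. The ligand genes Pvf2, Pvf3 and grk had none.

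Among 8 genes of Wnt, Hedgehog and Dpp signalling, 4 had a peak at an end (50.0%, against 27.7%). The ligand gene wg had peaks of 83.4 and 8.42. dpp had 3 peaks inside the gene, scoring 15.7, 26.2 and 36.8, and 1 of 9.0 near an end. The Dpp receptor gene tkv had peaks of 8.46 and 32.8, and Mad, for the transducer of that signal, had 1 of 53.9. No peak was called at smo, Wnt4, Wnt6 or Wnt10.

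For growth and Hippo signalling 5 of 9 genes had a peak at an end (55.6%, against 21.6%). They included lilli, with peaks of 242.8, 7.63 and 7.76, and Pi3K21B, the adaptor subunit of phosphoinositide 3-kinase (85.3). The others were ft (36.0) and ex (23.3), upstream members of the Hippo pathway, and Cdk1 (18.9), the mitotic kinase. chico, Thor, E2f2 and ds had none. The count was 3 where the gene end had to lie inside the peak.

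Nuclear receptor and ecdysone response genes overlapped peaks in 5 of 6 cases (83.3%, against 37.9% at the same lengths), and 3 of 6 had one at an end (50.0%, against 27.5%). vri, a basic zipper repressor of the circadian clock, held 6 peaks of 116.3, 19.4, 14.04, 18.7, 31.0 and 49.0. Hr39 had peaks of 79.0 and 42.8, Hnf4 of 21.5 and 27.7, and the transporter gene E23 of 31.5 and 33.0. Kr-h1 is described above, and Hr38 had no peak. The list came to 12.9 peak overlaps per 100 kb of gene, and vri and Kr-h1 account for 11 of its 17. Over all genes the value was 3.64, which is not matched for length. Other lists had 18.2 (ribosomal protein), 8.82 (patterning), 8.1 (chromatin), 7.45 (precursor) and 6.08 (Notch). The remaining values were 5.0 (receptor kinase), 4.82 (Wnt, Hedgehog and Dpp), 3.48 (growth) and 0 (tRNA).

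Chromatin and transcription regulators had 3 of 5 genes overlapping a peak (60.0%, against 31.8%) and 2 with one at an end (40.0%, against 23.6%). kis, a chromatin remodeller, held 6 peaks, of 8.58 to 43.8. spen, a nuclear RNA-binding regulator, held 4, of 32.6, 137.3, 40.9 and 78.8. The third was lilli, and Top2 and the gene of heterochromatin protein HP1a had none.

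Transcription factors of disc patterning and of precursors were near the share of all genes in the same length classes. In the patterning list 3 of 15 genes had a peak at an end (20.0%, against 25.7%): aop, sob (28.5) and bowl, which also held a second peak (17.0 and 11.9). vri overlapped peaks as well. Where the gene end had to lie inside the peak, 1 of the 15 had one. eya, H15, mid, cad, odd, slp1, slp2, net, drm, fok and Gsc had none. In the list of neural and mesodermal precursor factors 2 of 8 had a peak at an end (25.0%, against 23.2%), tup (78.3) and Kr-h1, and chinmo, a factor of neuronal temporal identity, held 5 internal peaks of 9.31 to 30.1. gcm, gcm2, ham, erm and Oli had none.

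**Figure D5:**
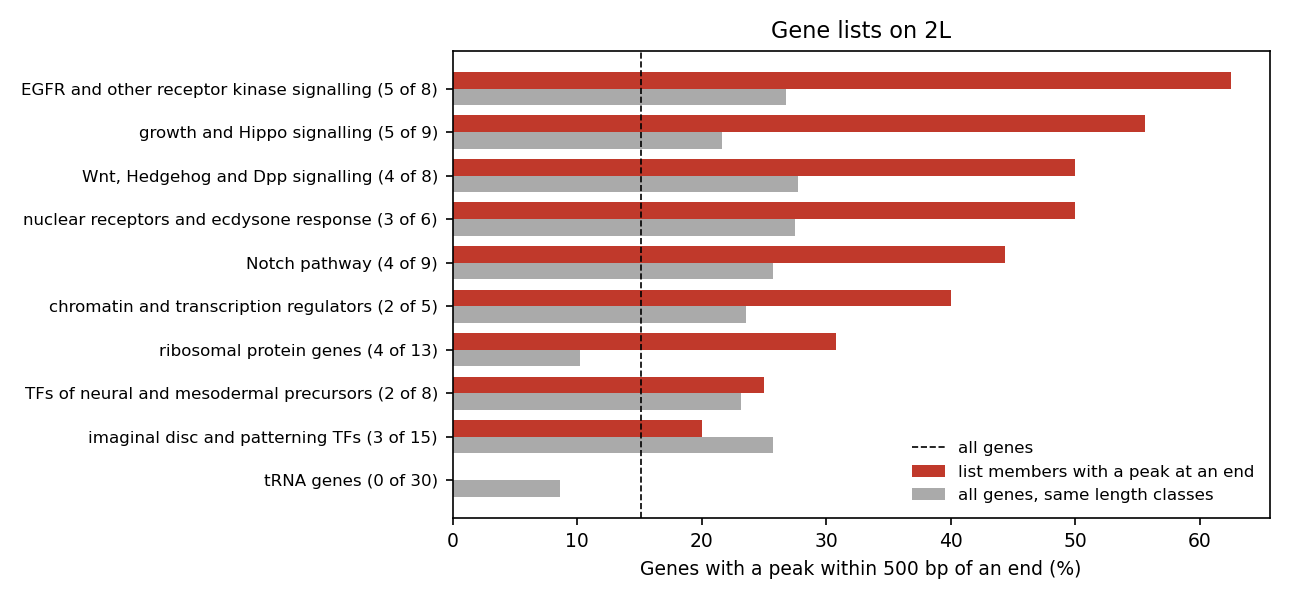
Share (%) of the members of each gene list with a peak within 500 bp of an end (red, upper bar, counts in brackets) and the share of all genes of the stretch in the same length classes (grey, lower bar); the dashed line is the share over all 2573 genes, 15.1%. The receptor kinase list has 62.5% against 26.8%, and the disc patterning list, at 20.0% against 25.7%, falls below its length classes. With the gene end required inside the peak, the receptor kinase, Notch and patterning lists have 1 member each with a peak and the growth list has 3. The Wnt, Hedgehog and Dpp list and the ribosomal protein list then have 3 each. The chromatin, nuclear receptor and precursor lists have 2 each and the tRNA list 0, beside 216 of all 2573 genes.

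Next came the short genes of the translation machinery. Of 13 ribosomal protein genes 4 had a peak at an end (30.8%, against 10.2% of genes of the same lengths): RpL27A (96.0), RpS21 (79.7), RpL40 (35.2) and RpS27A (34.7). None of 30 tRNA genes had a peak within 500 bp, against 8.6% of all genes under 1 kb. For 0 of 30 the exact interval reaches up to 11.6%, and the limit of 3 counts is 10.0%; both lie above 8.6%, so no difference from other short genes was detectable. By gene class, 338 of 1958 protein-coding genes had a peak at an end, 17.3% (15.6 to 19%), and 30 of 381 long non-coding RNA genes did, 7.87% (5.38 to 11%). Long non-coding RNA genes were shorter, with a median length of 644 bp against 2171.5 bp.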

How the data were processed

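GFP-tagged Notch was mapped by ChIP-seq in whole L3 larvae, with 2 ChIP and 2 input libraries. The peak list and its scores are as the authors deposited them; positions are on FlyBase release 5, per the file headers, which also name MACS for each peak. The submitters' processing notes list MACS2, BWA and CASAVA (versions 1.7.0.2 and 1.7.0.3), without settings. How input and replicates entered the calling is not given in the sources used here.

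From the list, peaks were chosen by position, chained within 5 kb and set against gene ends within 500 bp. Gene names came from RefSeq's table of assembly Release 6 plus ISO1 MT, as no annotation of release 5 was used. Gene starts had been planned, but the table has no strand, so both ends were used. Planned motif counts were not run, since no sequence was used. Named items were the 15 highest and 3 widest peaks, the 5 largest groups and all listed genes, except 1 item not reported here. The members and lists were chosen with earlier results of these data known. Alternatives were peaks above the median score, merging within 1 kb, other distances and shifted gene positions. No p-values were computed. Functions were tested on simulated data. The software was scipy 1.17.1, pandas 2.3.3 and numpy 2.4.6 under Python 3.11.15.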

Additional observations from a re-analysis of the deposited data

How the results depend on the processing

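Of 66 values under alternatives, 40 stayed within their interval or within 1.5 times of their count and 26 did not. The 3 with all 4 sections were chosen after seeing the data. Among peaks above the list's median score the median width was 709 bp and the median score 55.0, with 29 groups holding 63 peaks and 246 genes with a peak at an end; densities, lower by construction, were 12.4 per Mb on 2L, 13.2 on 3L, 14.2 on 3R and 16.6 on X. Merging within 1 kb gave 548 bp, a score of 30.2, and 21.4, 23, 24.4 and 29.1 per Mb. Within 250 bp of a gene end lay 28.8% of peaks and within 1000 bp 59.5%, where the ratio to bases was 1.78; with protein-coding genes only it was 2.53. Shifting gene positions by up to 100 bp kept the share between 46.2 and 47.3%. Including the section that failed the position check gave 45.5% of peaks, a ratio of 2.22, and 13.6% of genes with a peak at an end. Requiring the gene end inside the peak left 216 genes, with 3 in the growth list and 1 each in the receptor kinase, Notch and patterning lists. Under the same setting 3 each were left in the ribosomal protein list and the Wnt, Hedgehog and Dpp list. The chromatin, nuclear receptor and precursor lists kept 2 each. Within 1000 bp 1 tRNA gene had a peak. No paired analysis was possible because peaks have no separate values by library, and no library could be left out. Motif alternatives were not run. Depth is unknown, so a gene without a peak is one not called at an unknown depth.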

Other observations

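Most of the 346 genes that overlapped a peak had 1 (272 genes), and 14 genes had 4 or more; these are named after their values were seen. The most were in tai, which encodes a co-activator of the ecdysone receptor, with 8 peaks of 8.28 to 50.2 over 83.43 kb, none of them high. brat (45.94 kb), a translational repressor that acts in neural stem cell lineages, had 4 peaks of 9.33 to 24.7 and 1 of 171.8. lncRNA:let7C (17.42 kb), the host transcript of let-7, held 5 peaks, the highest scoring 102.1. ush (64.34 kb), a cofactor of GATA factors, held 5, of 8.89 to 52.5. Snoo (93.01 kb), a Ski/Sno family regulator of Dpp-type signalling, held 4, of which 3 scored 15.5 to 16.7 and 1 scored 152.8. Pde11 (58.32 kb), a phosphodiesterase gene, held 4 of 7.32 to 21.2. These are raw counts, not adjusted for gene length, and over all genes there were 3.64 peak overlaps per 100 kb.

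Below the 15 highest peaks, a few were also picked by gene after their values were seen, and other peaks of like rank are not named here. Rank 16 of the stretch was a peak of 186.4 inside Socs36E, an inhibitor of JAK/STAT signalling. Rank 22 was one of 176.2 at ends of da, the partner of proneural factors, and mRpS7. Rank 23 was one of 173.3 at an end of SoxN, a Sox factor of the nervous system. Among small RNA genes, 4 of 49 microRNA genes (8.16%), 2 of 37 snoRNA genes (5.41%) and 1 of 11 snRNA genes (9.09%) had a peak at an end, against 8.6% of all genes under 1 kb and 15.1% of all genes.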
